A study of Mus musculus with 12 samples.

Results

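The genes described here are 38 genes of DNA replication and mitosis among the 24028 genes of the count tables: 17 genes that act in the G1/S transition and in S phase, from Mcm2 to E2f1, and 21 genes that act in G2 and mitosis, from Mki67 to Nusap1. They were taken by symbol through their NCBI gene IDs, and the list was chosen with earlier results of these data known. The study sequenced RNA of bone marrow cells from C57BL/6 mice in 4 groups of 3 libraries. The wt LSK group was wild type marrow from control mice, depleted of lineage-positive cells and sorted by FACS for c-kit and Sca-1, the gate of the blood-forming stem and early progenitor cells. All leukemic groups were from mice with a doxycycline-inducible MLL-ENL knock-in (a leukemia fusion gene) that received doxycycline until acute leukemia developed. The iMLL-ENL total group was leukemic cells of whole marrow, and the B220 HIGH and B220 LOW groups were leukemic cells sorted separately by FACS for a high or a low level of B220, an isoform of the surface protein CD45. The labels do not state whether the control mice also received doxycycline, which cells express the fusion, or the age of the mice. They give 3 animals per genotype and not the animal behind each library, so the p-values below measure the spread between libraries.

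Before S phase, CDC6 and CDT1 load the MCM helicase onto replication origins, and cyclin E with CDK2, CDC45 and the GINS complex then turn that helicase into a moving fork, supplied with deoxynucleotides by ribonucleotide reductase and thymidylate synthase. Mitosis is driven by cyclin B with CDK1 and by the Aurora and Polo kinases, while the spindle checkpoint holds the cell until every kinetochore is attached. Genes of the first group are classical targets of E2F factors, and many of the second are bound at their promoters by the NF-Y complex and by complexes that recognize the cell cycle genes homology region (CHR). In bone marrow, most hematopoietic stem cells are quiescent while progenitors and granulocyte precursors divide.

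Each wt LSK library held 18227843 to 19607722 counts and each iMLL-ENL total library 18001563 to 22706882, while B220 LOW libraries held 13441696 to 16626820 and B220 HIGH libraries 10921521 to 20069503. Every one of the 38 genes was counted in every library, and the lowest count was 79, for Ccne1 in a wt LSK library. Levels are given as CPM, the counts of a gene scaled to the total of its library. As a check of the labels, 7 genes of the LSK gate and of stem cells summed to 2857 to 3475 CPM in wt LSK and to 93.6 to 365 CPM in the leukemic libraries. A list of 9 mature neutrophil genes summed to at most 166 CPM in the wt LSK libraries, to between 1271 and 12420 CPM in those of iMLL-ENL total, to between 827 and 3711 CPM for B220 LOW and to between 197 and 16490 CPM for B220 HIGH, so the libraries of a leukemic group differed several fold in this list. The library kit kept no strand, and 13 of the 38 genes overlap another annotated gene, so their counts are uncertain by any reads of that neighbour: Mcm7, Gins2, Cdc45, Ccne2, E2f1, Top2a, Ccna2, Aurka, Cdc20, Kif11, Kif20a, Foxm1 and Nusap1. In these bulk samples, fewer dividing cells and less RNA of a gene per dividing cell cannot be told apart.

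The promoters show how the replication and the mitosis genes differ before any expression value is considered. RefSeq promoter windows on GRCm38.p6, 300 bases long with 250 before the first transcribed base, were available for 31 of the 38 genes. The windows of E2f1, Cdc6 and Aurka, and window 2 of Mcm7, lay wholly inside the annotated gene, away from its outermost start. E2f1, without an E2F match, and Cdc6, with 1, were thus scored from sequence inside the gene. They were searched on both strands for an E2F site (TTTCCCGC, TTTCGCGC, TTTGCCGC or TTTGGCGC), for the CHR (TTTGAA) and for the CCAAT box bound by NF-Y (CCAAT), and 1 pair of matches of different motifs overlapped. The E2F letters stood in 6 of 14 replication genes (42.9%), in 1 of 17 mitosis genes (5.88%, Cdk1) and in 3.31% of the 17965 genes of the tables with a window. The CHR letters stood in 2 of 14 replication genes (14.3%), in 12 of 17 mitosis genes (70.6%) and in 17.8% of all genes. The CCAAT box was found in 64.3%, 88.2% and 42.2%, and a CHR together with a CCAAT box in 12 of 17 windows of mitosis genes, 2 of 15 of replication genes and 6.28% of all windows. A match is a run of letters and not a measured binding site. Of the windows printed here, Mcm5 and Mcm6 (subunits of the MCM helicase) show E2F matches beside CCAAT boxes, and Cdk1 (the mitotic kinase) carries all 3 motifs. Ccnb2 (cyclin B2), Aurka (Aurora A kinase) and Plk1 (Polo-like kinase) show CCAAT boxes with a CHR close to the start that the window uses. Each runs 5′ to 3′ on the strand of its gene, and capitals mark matches to any of these motifs on either strand:
Mcm5, chr8:75109259-75109558, plus strand: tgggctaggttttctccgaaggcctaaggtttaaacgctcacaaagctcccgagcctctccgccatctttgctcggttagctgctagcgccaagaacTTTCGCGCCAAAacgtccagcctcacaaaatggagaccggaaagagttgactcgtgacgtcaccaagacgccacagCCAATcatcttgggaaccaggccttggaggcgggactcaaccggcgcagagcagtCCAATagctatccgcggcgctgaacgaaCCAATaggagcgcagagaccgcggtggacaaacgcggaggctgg
Mcm6, chr1:128359656-128359955, minus strand: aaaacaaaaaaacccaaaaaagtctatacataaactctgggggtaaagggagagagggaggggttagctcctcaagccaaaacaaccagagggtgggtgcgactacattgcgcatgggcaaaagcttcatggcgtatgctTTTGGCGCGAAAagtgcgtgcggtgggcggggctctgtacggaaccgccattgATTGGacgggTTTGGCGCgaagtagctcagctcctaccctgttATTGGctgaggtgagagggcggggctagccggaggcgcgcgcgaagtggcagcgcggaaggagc
Cdk1, chr10:69352863-69353162, minus strand: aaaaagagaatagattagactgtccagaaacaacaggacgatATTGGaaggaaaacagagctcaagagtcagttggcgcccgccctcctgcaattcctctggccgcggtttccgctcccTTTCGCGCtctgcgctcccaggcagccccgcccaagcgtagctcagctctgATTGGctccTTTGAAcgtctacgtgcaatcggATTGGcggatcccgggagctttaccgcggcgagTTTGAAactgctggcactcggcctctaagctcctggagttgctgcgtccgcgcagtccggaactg
Ccnb2, chr9:70421505-70421804, minus strand: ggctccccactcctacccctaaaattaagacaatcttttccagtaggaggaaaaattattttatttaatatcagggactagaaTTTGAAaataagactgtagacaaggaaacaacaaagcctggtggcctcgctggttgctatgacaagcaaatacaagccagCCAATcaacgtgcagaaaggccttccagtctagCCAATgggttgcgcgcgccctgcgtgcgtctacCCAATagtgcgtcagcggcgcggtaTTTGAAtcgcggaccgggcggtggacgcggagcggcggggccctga
Aurka, chr2:172370521-172370820, minus strand: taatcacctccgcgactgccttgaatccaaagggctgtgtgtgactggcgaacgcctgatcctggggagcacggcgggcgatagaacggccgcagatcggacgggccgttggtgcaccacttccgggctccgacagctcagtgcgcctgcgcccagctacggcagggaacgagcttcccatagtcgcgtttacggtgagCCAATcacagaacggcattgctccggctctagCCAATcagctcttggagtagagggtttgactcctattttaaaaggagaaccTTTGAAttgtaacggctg
Plk1, chr7:122159185-122159484, plus strand: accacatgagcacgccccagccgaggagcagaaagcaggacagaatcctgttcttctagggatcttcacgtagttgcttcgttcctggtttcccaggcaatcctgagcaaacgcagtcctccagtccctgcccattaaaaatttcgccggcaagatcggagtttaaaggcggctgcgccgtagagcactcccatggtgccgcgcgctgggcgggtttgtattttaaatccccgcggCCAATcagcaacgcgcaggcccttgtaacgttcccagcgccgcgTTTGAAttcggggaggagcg

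Across the 4 groups, both sets had their lowest mean in wt LSK and their highest in B220 LOW. The B220 LOW libraries lay above all others only for the replication genes. The mean over the 17 replication genes of log2(CPM + 1) was 6.37 ± 0.05 (SD, n = 3) in wt LSK, 6.66 ± 0.10 in iMLL-ENL total, 7.26 ± 0.08 in B220 LOW and 6.66 ± 0.08 in B220 HIGH. The 3 B220 LOW libraries (7.17, 7.30 and 7.31) lay above all others and the 3 wt LSK libraries (6.31, 6.38 and 6.42) below all others, while iMLL-ENL total and B220 HIGH overlapped. For the 21 mitosis genes the mean was 6.78 ± 0.15 in wt LSK, 7.31 ± 0.16 in iMLL-ENL total, 7.44 ± 0.03 in B220 LOW and 7.27 ± 0.23 in B220 HIGH, and the 3 leukemic groups overlapped each other above wt LSK. The gap between the mitosis and the replication mean was 0.11 to 0.31 in B220 LOW, 0.23 to 0.51 in wt LSK, between 0.42 and 0.78 in iMLL-ENL total and between 0.41 and 0.87 in B220 HIGH. These levels span 2 separately deposited count tables and were not tested across them.

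**Figure D1:**
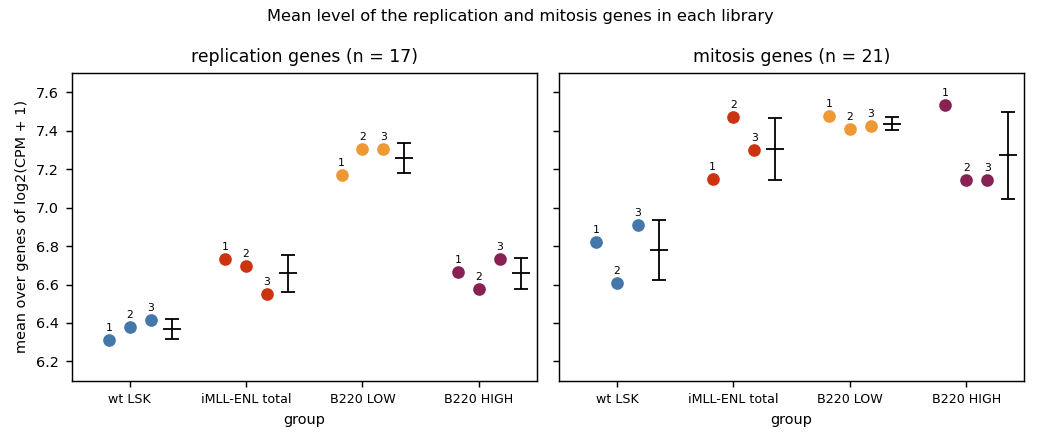
Mean of log2(CPM + 1) over the 17 replication genes (left) and the 21 mitosis genes (right) in each of the 12 libraries, with the replicate number above each point and the group mean with its SD (n = 3) as a bar beside the points. The vertical axis does not start at 0. For the replication genes the B220 LOW libraries lie at 7.17 to 7.31, above every other library. For the mitosis genes the 3 leukemic groups share one range.

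By group mean, 13 of the 17 replication genes were highest in B220 LOW, 9 were lowest in wt LSK and 7 were lowest in B220 HIGH. Of the 21 mitosis genes, 9 were highest in B220 LOW, 8 in iMLL-ENL total, 2 in B220 HIGH and 2 in wt LSK, and 14 were lowest in wt LSK. The same order was not counted over all genes, so these counts have no background share beside them. Together the 38 genes took between 0.721% and 0.872% of all counts of a wt LSK library. That share was between 0.921% and 1.03% for iMLL-ENL total, between 0.983% and 1.06% for B220 LOW and between 0.775% and 0.988% for B220 HIGH. Per base of gene width, on the TPM scale computed from the deposited widths, Mki67 (the Ki-67 antigen of dividing cells) was the highest of the 38 in all 4 groups, with means of 920 in wt LSK, 939 in iMLL-ENL total, 610 in B220 LOW and 522 in B220 HIGH. On that scale Ccne1 (cyclin E1) was the lowest in wt LSK, at 10.9, and E2f1 (the E2F transcription factor) the lowest in iMLL-ENL total, at 26.0, and in B220 HIGH, at 12.5, while Plk1 was the lowest in B220 LOW, at 20.9. In some libraries many mitosis genes stood at one end of their group together: wt LSK replicate 2 was the lowest of its group in 16 of 21, iMLL-ENL total replicate 2 the highest of its group in 15 of 21, and B220 HIGH replicate 1 the highest of its group in 16 of 21. B220 HIGH replicate 1 was also the library with the lowest mature neutrophil sum among the leukemic ones, at 197 CPM with Ltf and Retnlg at 0, against 16490 and 5048 in its group. The wt LSK replicate 2 library had the highest neutrophil and B lineage sums of its group, at 166 and 238 CPM against at most 29.1 and 51.6. The part of these differences in the mitosis values was not tested. The library ranks were not counted over all genes, and they rest on library totals without the TMM factors of the tests below. B220 HIGH replicate 1 had a factor of 1.0904 against 0.9644 and 0.9081, so its CPM stood higher beside its group than after TMM scaling. In wt LSK, replicate 2 had the highest factor, 1.1013, which goes against its low ranks. Ranks after TMM scaling were not counted.

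**Figure D2:**
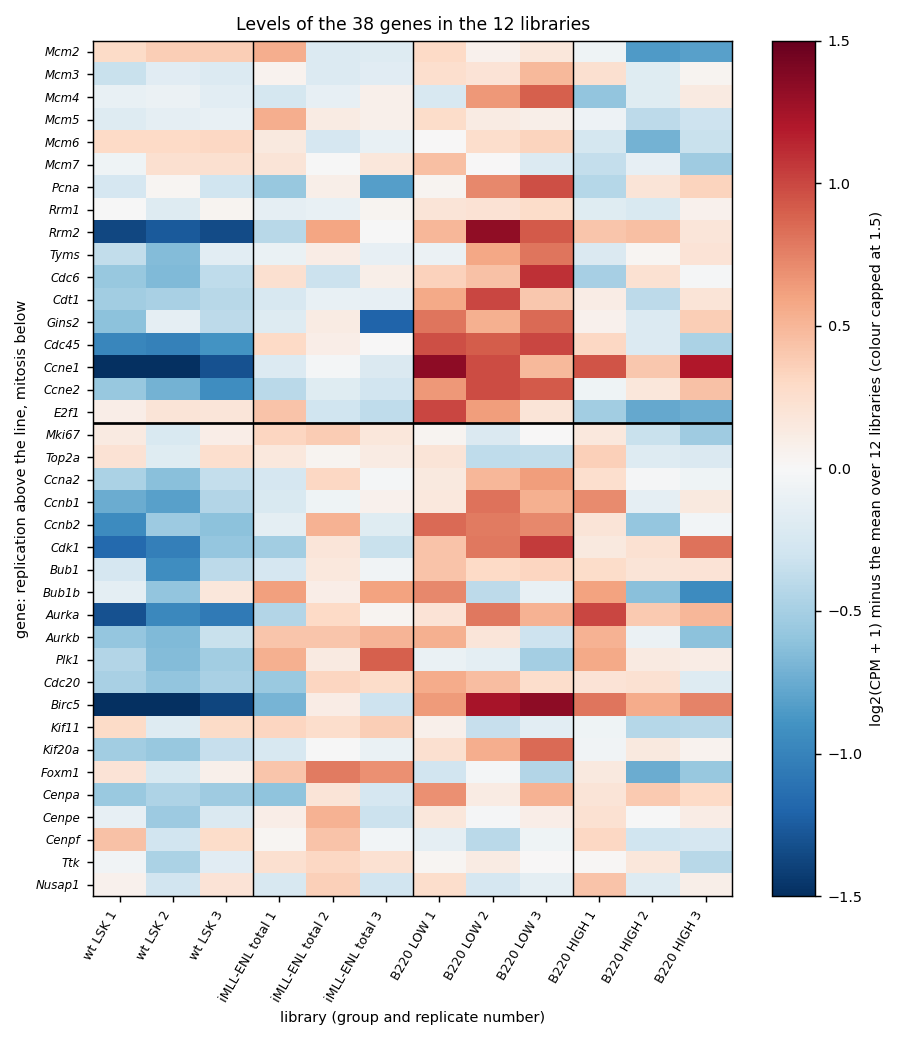
Level of each of the 38 genes (rows, replication above the line and mitosis below) in the 12 libraries (columns), as log2(CPM + 1) minus the mean of the gene over the 12 libraries; red is above and blue below that mean. Rrm2, Cdc45, Ccne1, Aurka and Birc5 are lowest in the 3 wt LSK libraries, and most replication genes are highest in the B220 LOW libraries.

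The first comparison asked how leukemic marrow differs from normal stem and progenitor cells. In iMLL-ENL total, 14 of the 38 genes were higher than in wt LSK and 0 were lower, against 15.5% of all 13811 tested genes called higher and 15.1% called lower (30.6% in either direction) by edgeR's quasi-likelihood test at a Benjamini-Hochberg adjusted p under 0.05. The higher genes were 5 of 17 replication genes (Mcm5, Cdc6, Cdc45, Rrm2 and Ccne1) and 9 of 21 mitosis genes (Ccna2, Ccnb2, Cdk1, Foxm1, Aurka, Aurkb, Plk1, Birc5 and Ttk). The share called higher among the mitosis genes exceeded the background share, and that among the replication genes was nearer to it, with neither difference tested. The median log2 fold change was 0.56 over the 38 genes, 0.29 over the replication genes and 0.66 over the mitosis genes, against 0.05 over all genes. With library totals in place of TMM factors the median of all genes was -0.10 and that of the 38 genes 0.42, and 9 genes were called. Sorted progenitors stood against unsorted marrow here, so leukemia and cell type cannot be told apart: 5 promyelocyte genes summed to 1255 to 2083 CPM in wt LSK and 6065 to 17600 in iMLL-ENL total, and 7 monocyte and macrophage genes to 113 to 305 and 1458 to 2822. Their part in the results, and that of the neutrophil list above, was not tested.

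Many of these calls were lost when a single library was left out, which also makes its group smaller. The part of the library itself and that of the smaller group cannot be told apart. Without wt LSK replicate 1, 2 or 3, respectively, 7, 6 or 7 of the 38 genes were called, and without iMLL-ENL total replicate 3, 8 were. Calls over all genes also fell, to 2658 of 4221 without wt LSK replicate 1 and to 2636 without wt LSK replicate 3. Leaving out wt LSK replicate 2, the lowest of its group in 16 of 21 mitosis genes, left 3 mitosis genes called. The median log2 fold change of the 38 genes was then 0.42, against 0.56 with all libraries. It was 0.58 without wt LSK replicate 1 and 0.59 without replicate 3. The part of wt LSK replicate 2 in the calls was not tested. Rrm2, Cdc45, Ccne1, Aurka, Aurkb and Birc5 were called under all 13 other settings, each left-out library included. With all libraries, DESeq2 called 12 of the 38 genes and limma-voom 17, the latter adding Ccnb1, Ccne2 and Bub1b. For 21 genes the 3 leukemic libraries all lay above the 3 wt LSK libraries in CPM (8 replication and 13 mitosis genes), where 19% of all tested genes did. For 1 gene, Mcm6, they all lay below, where 29.5% of all genes did.

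Among the genes that license origins, 2 of 8 were higher. Mcm5 (NCBI gene 17218, chr8:75109468-75128439) was at 129, 134 and 136 CPM in wt LSK and at 215, 160 and 155 CPM in iMLL-ENL total. The groups did not overlap, and the first leukemic library lay well above the other two. The log2 fold change was 0.56 (SE 0.18, adjusted p = 0.0471), and among the 13 other settings the call was kept with limma-voom (adjusted p = 0.0446) and when iMLL-ENL total replicate 2 was left out (0.0317), and lost in 11, each other left-out library included, with adjusted p between 0.0551 and 0.171. Cdc6, the loader of the helicase, was at 31.9, 29.9 and 36.5 CPM in wt LSK and at 56.6, 38.2 and 50.8 CPM in iMLL-ENL total, again without overlap. Its log2 fold change was 0.72 (SE 0.23, adjusted p = 0.0462), and the call was lost in 9 of 13 settings, among them each left-out wt LSK library (adjusted p 0.111 to 0.181) and iMLL-ENL total replicates 1 and 3 (0.113 each). The other licensing genes passed no test: Mcm2, Mcm3, Mcm4, Mcm6, Mcm7 and the loader Cdt1 had log2 fold changes between -0.21 and 0.48. Mcm2 was at 214, 226 and 227 CPM in wt LSK and at 257, 152 and 152 CPM in iMLL-ENL total, so that 1 leukemic library lay above and the other two below all wt LSK libraries (log2 fold change -0.10, SE 0.22, adjusted p = 0.772). Mcm6, at 452 to 457 CPM in wt LSK and 309 to 409 in iMLL-ENL total, had a log2 fold change of -0.21 after TMM scaling with an adjusted p of 0.396. Of the 6 MCM genes, which encode one hexamer, Mcm5 was the only one called, and differences between their fold changes were not tested.

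Of the 3 genes of origin firing and the fork, only Cdc45 was called. Cdc45 (NCBI gene 12544, chr16:18780447-18811972), a subunit of the active helicase, was at 37.9, 36.9 and 40.2 CPM in wt LSK and at 93.5, 81.2 and 75.8 CPM in iMLL-ENL total. All leukemic libraries lay far above the highest wt LSK value, and the log2 fold change was 1.27 (SE 0.19, adjusted p = 0.00147). Gins2, which acts with it, was at 44.0 to 61.6 CPM in wt LSK and 28.9 to 73.9 in iMLL-ENL total, and Pcna, the sliding clamp, at 75.5 to 95.3 and 52.0 to 98.6, so both overlapped. Pcna had a log2 fold change of -0.07 (SE 0.26, adjusted p = 0.862).

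In nucleotide supply, 1 of 3 genes was called, the small subunit of ribonucleotide reductase, and its fold change was not tested against that of the large subunit. Rrm2 (NCBI gene 20135, chr12:24708254-24714146), whose protein is degraded and resynthesized with the cycle, was at 85.4, 91.6 and 86.8 CPM in wt LSK and at 166, 335 and 221 CPM in iMLL-ENL total. The wt LSK libraries were tightly grouped and the leukemic libraries were spread over a wide range above them. The log2 fold change was 1.61 (SE 0.27, adjusted p = 0.00265). Rrm1, the large subunit, was at 241 to 284 CPM in wt LSK and 253 to 286 in iMLL-ENL total, which overlap. Tyms, thymidylate synthase, was at 48.7 to 68.6 and 70.3 to 83.2 CPM, without overlap and without a call.

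Among the G1/S regulators, Ccne1 (NCBI gene 12447, chr7:38097984-38107490) was at 4.24, 5.60 and 7.29 CPM in wt LSK and at 16.8, 19.0 and 16.6 CPM in iMLL-ENL total. This cyclin starts S phase with CDK2, and its leukemic libraries were close together and all far above the highest wt LSK value. The log2 fold change was 1.77 (SE 0.32, adjusted p = 0.00414), the largest of the 38 genes. Its paralog Ccne2 was at 44.6 to 57.6 CPM in wt LSK and 64.8 to 75.7 in iMLL-ENL total, without overlap, at an adjusted p of 0.0533 (0.0456 by limma-voom). E2f1 was at 27.4, 29.4 and 29.1 CPM in wt LSK and at 34.8, 20.7 and 19.4 CPM in iMLL-ENL total, with the leukemic libraries on both sides of wt LSK (log2 fold change -0.05, SE 0.28, adjusted p = 0.91).

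**Figure D3:**
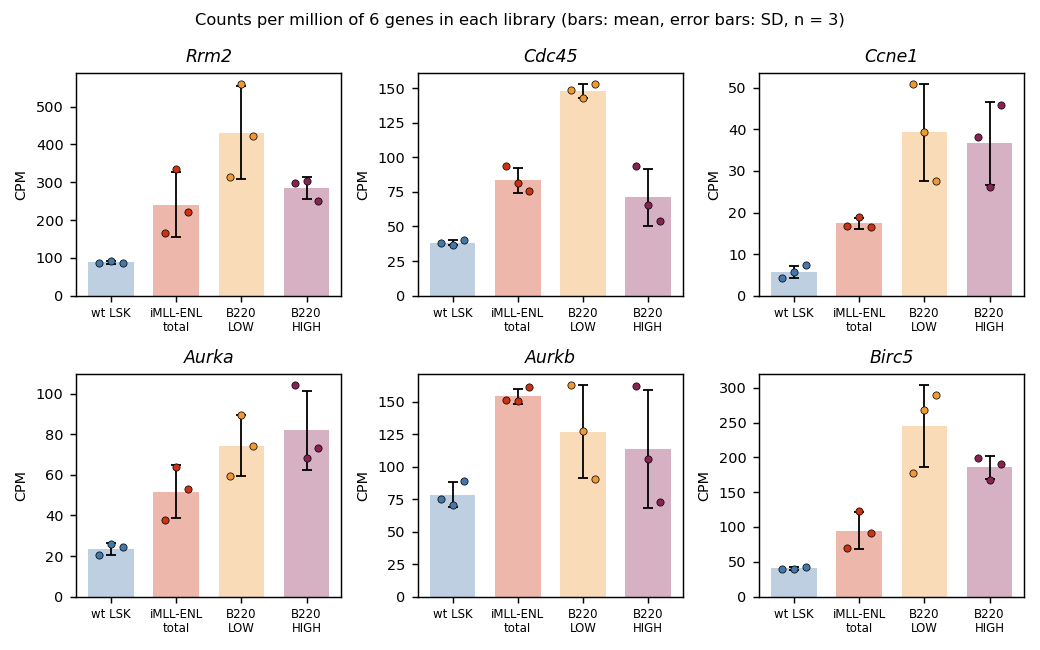
CPM of Rrm2, Cdc45, Ccne1, Aurka, Aurkb and Birc5, the genes called higher in iMLL-ENL total than in wt LSK under every setting tried. Points are libraries in replicate order, bars are means from 0 and error bars are SD (n = 3). For each gene all wt LSK points lie below all iMLL-ENL total points, and Cdc45 is the gene whose B220 LOW points (143 to 153 CPM) all lie far above B220 HIGH (54.1 to 93.9).

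The mitotic kinases and checkpoint genes held 5 of the 9 calls on the mitosis side, from 8 genes with a median log2 fold change of 0.95. Aurka (NCBI gene 20878, chr2:172356190-172370886), the centrosomal Aurora kinase, was at 20.3, 25.8 and 24.2 CPM in wt LSK and at 37.9, 63.8 and 53.2 CPM in iMLL-ENL total, with a log2 fold change of 1.30 (SE 0.26, adjusted p = 0.00617). Aurkb (NCBI gene 20877, chr11:69045624-69051664) and Birc5 (NCBI gene 11799, chr11:117849237-117855743) encode 2 proteins of the chromosomal passenger complex, Aurora B and survivin. Aurkb was at 75.2, 70.8 and 89.3 CPM in wt LSK and at 151, 151 and 161 CPM in iMLL-ENL total, a log2 fold change of 1.13 (SE 0.18, adjusted p = 0.00244). Birc5 was at 38.9, 39.1 and 43.1 CPM in wt LSK and at 69.7, 123 and 91.3 CPM in iMLL-ENL total, a log2 fold change of 1.38 (SE 0.25, adjusted p = 0.00365). In all 3 genes the groups were separate, with Aurkb near one level in the leukemic libraries and Aurka and Birc5 highest in replicate 2.

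Plk1 (NCBI gene 18817, chr7:122159435-122169884), whose kinase acts from mitotic entry to cytokinesis, was at 16.3, 13.9 and 15.3 CPM in wt LSK and at 32.9, 24.7 and 42.7 CPM in iMLL-ENL total. The groups were separate, and the log2 fold change was 1.29 (SE 0.29, adjusted p = 0.0106), with the call lost without wt LSK replicate 2 (0.0554) or 3 (0.0503). Ttk, a kinase of the spindle checkpoint, was at 71.6, 53.0 and 65.9 CPM in wt LSK and at 87.9, 92.2 and 87.4 CPM in iMLL-ENL total. It had a log2 fold change of 0.64 (SE 0.20, adjusted p = 0.0442), and only limma-voom kept the call (0.0343), all 6 left-out libraries losing it with adjusted p from 0.0557 to 0.177. The checkpoint genes Bub1 and Bub1b and the activator of the anaphase promoting complex, Cdc20, did not pass (adjusted p = 0.0949, 0.0529 and 0.0853), at log2 fold changes of 0.61, 0.77 and 0.76. Bub1b was called by limma-voom (adjusted p = 0.0415) and by edgeR without iMLL-ENL total replicate 2 (0.0228).

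Among cyclins, Cdk1 and Foxm1, 4 of 5 genes were higher. Ccnb2 was at 61.3, 81.2 and 77.3 CPM in wt LSK and at 107, 171 and 105 CPM in iMLL-ENL total (log2 fold change 0.96, SE 0.24, adjusted p = 0.0164). Cdk1 was at 53.4, 59.1 and 81.1 CPM in wt LSK and at 84.0, 137 and 96.3 CPM in iMLL-ENL total, so that the lowest leukemic library lay just above the highest wt LSK library (log2 fold change 0.87, SE 0.26, adjusted p = 0.0322). Ccna2, the cyclin of S phase and G2, was at 273, 246 and 295 CPM and at 318, 470 and 372 CPM (log2 fold change 0.66, SE 0.21, adjusted p = 0.0397). Foxm1, a transcription factor of G2 and M genes, was at 110, 81.3 and 101 CPM and at 128, 164 and 154 CPM (log2 fold change 0.76, SE 0.21, adjusted p = 0.028). All 4 genes were separate between the groups, and all lost their call when some single libraries were left out. Ccnb2 lost it without any one of the wt LSK libraries (adjusted p = 0.0935, 0.057 and 0.0594 for replicates 1, 2 and 3), Cdk1 without wt LSK replicate 1 or 2 (0.149 and 0.132) or iMLL-ENL total replicate 2 or 3 (0.0595 and 0.0562). Foxm1 lost it without wt LSK replicate 1, 2 or 3 (0.0553, 0.121 and 0.0972) or iMLL-ENL total replicate 3 (0.0686), and Ccna2 without any library but iMLL-ENL total replicate 1 (0.0773 to 0.161). Ccnb1, the main mitotic cyclin, was at 16.6, 15.9 and 20.9 CPM in wt LSK and at 24.4, 27.3 and 29.9 CPM in iMLL-ENL total, without overlap and with an adjusted p of 0.0521 by edgeR (log2 fold change 0.76, SE 0.26), 0.0405 by DESeq2 and 0.0435 by limma-voom.

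The structural genes of mitosis were not called. Mki67 was at 2690, 2077 and 2613 CPM in wt LSK and at 3054, 3190 and 2754 CPM in iMLL-ENL total, separate by a narrow margin (log2 fold change 0.43, SE 0.20, adjusted p = 0.146). Top2a, the topoisomerase that untangles chromosomes, was at 1177, 890 and 1207 CPM and at 1134, 1040 and 1100 CPM, with the leukemic libraries inside the wt LSK range (log2 fold change 0.15, SE 0.20, adjusted p = 0.62). The spindle motors Kif11 and Kif20a and the microtubule protein Nusap1 had log2 fold changes of 0.32, 0.53 and 0.11, and the centromere genes Cenpa, Cenpe and Cenpf of 0.49, 0.57 and 0.13. Cenpa, the histone variant that marks centromeres, was at 79.5, 85.1 and 81.3 CPM in wt LSK and at 77.0, 135 and 98.4 CPM in iMLL-ENL total, with 1 leukemic library below and 2 above wt LSK (SE 0.23, adjusted p = 0.149). All 21 mitosis fold changes were above 0 with TMM factors, and those of Cenpf and Nusap1 were -0.01 and -0.03 with library totals, which also turned Mcm7 and Rrm1 from 0.14 each to -0.02 and -0.01.

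**Figure D4:**
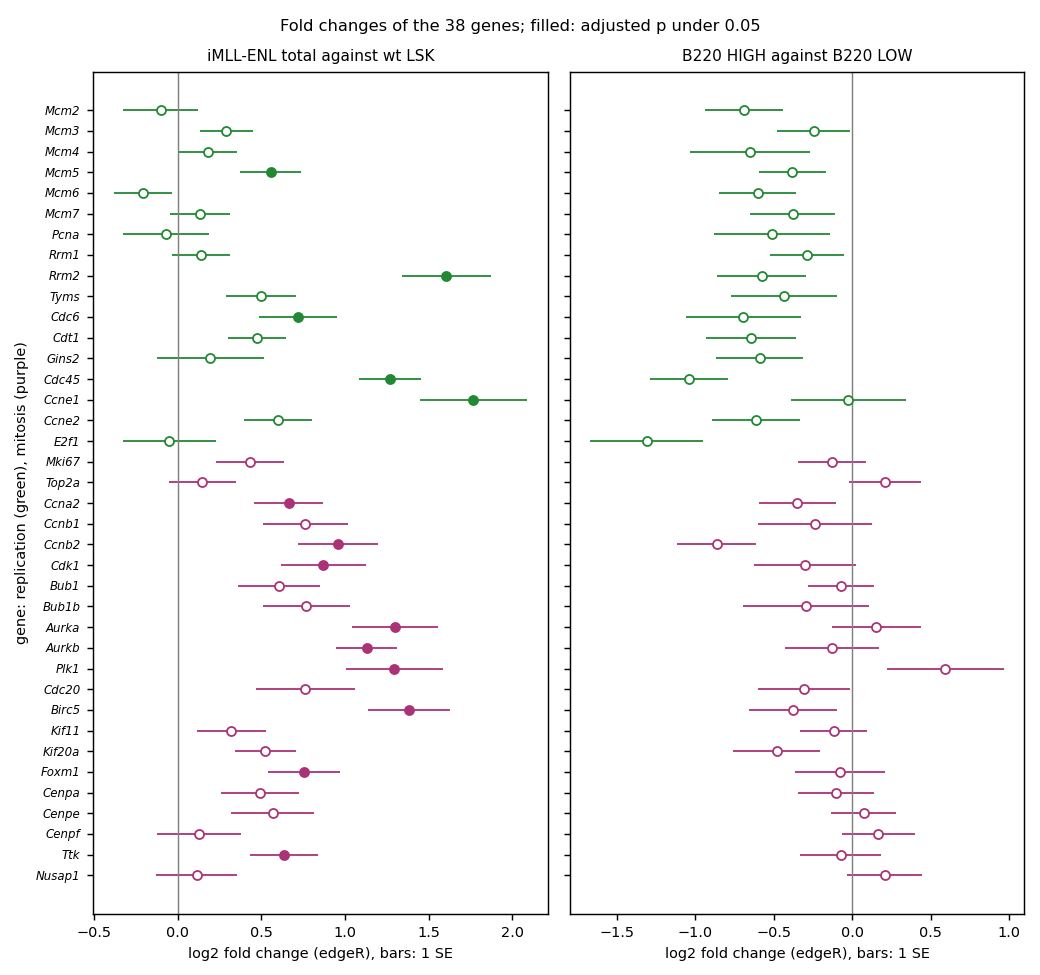
Log2 fold change of the 38 genes in the comparison of iMLL-ENL total with wt LSK (left) and of B220 HIGH with B220 LOW (right), with bars of 1 standard error; green is replication, purple is mitosis, and filled points have an adjusted p under 0.05. The 14 filled points are all on the left and above 0. On the right, all 17 replication genes lie below 0 and the mitosis genes lie on both sides.

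Other genes of the same pathways, taken from lists by textbook function, were counted in the same way. Of 90 genes on 6 lists of the replication side, 11 were higher in iMLL-ENL total (12.2%) and 5 lower (5.56%), both shares below those of all genes tested (15.5% and 15.1%), with a median log2 fold change of 0.25. Of 88 genes on 5 lists of the mitosis side, 33 were higher (37.5%) and 0 lower, with a median of 0.61. The second count was 10, 11 and 12 without wt LSK replicate 1, 2 and 3, and the first 5, 5 and 4. The lists of origin licensing, origin firing, polymerases and nucleotide supply each lay below the share of all genes called higher. Origin licensing had 1 of 11 higher, which was Gmnn (geminin, the inhibitor of Cdt1; log2 fold change 1.33, adjusted p = 0.0251), and 0 of 11 without any one of the wt LSK libraries (adjusted p of Gmnn 0.117, 0.0566 and 0.0918 for replicates 1, 2 and 3). Origin firing and the fork had 0 of 12 in either direction. Polymerases, clamp loader and Okazaki fragment genes had 2 of 25 higher, the nuclease Dna2 (1.21, adjusted p = 0.0015) and the flap endonuclease Fen1 (0.98, adjusted p = 0.0165), and Fen1 lost its call without each wt LSK library (0.0644, 0.0813 and 0.0618). Nucleotide supply had 1 of 13 lower, Dctd (deoxycytidylate deaminase), at 67.6 to 76.0 CPM in wt LSK and 15.3 to 25.9 in iMLL-ENL total (-1.64, adjusted p = 0.00135). The S phase checkpoint and recombination list had 3 of 14 higher, Fanca of the Fanconi anemia core complex among them (1.49, adjusted p = 0.00133), and 1 lower, with 1 of 14 higher without each wt LSK library.

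The E2F and pocket protein list had 5 of 15 higher and 3 lower, and 3 higher and 0 lower with all 12 libraries in one fit. E2f2, an activator like E2f1, was at 21.6 to 28.7 CPM in wt LSK and 60.7 to 88.4 in iMLL-ENL total, while Tfdp2, a partner subunit of E2F factors, was at 199 to 230 and 56.3 to 84.7. Their log2 fold changes were 1.65 and -1.45 (adjusted p = 0.00131 and 0.00122), and Tfdp2 was not called with all 12 libraries in one fit (0.0681). Without wt LSK replicate 1, 2 and 3 the list had 3, 3 and 2 genes higher. On the mitosis side, 5 of 15 genes of G2 and mitotic entry, 5 of 14 of the spindle checkpoint and anaphase promoting complex, 9 of 21 of kinetochore and centromere, 9 of 24 of spindle motors and cytokinesis and 5 of 14 of condensin and cohesin were higher. Without wt LSK replicate 1, 2 and 3, respectively, these counts were 1, 0 and 2 for G2 and mitotic entry, 1, 3 and 1 for the spindle checkpoint, 4, 3 and 4 for the kinetochore, 4, 4 and 5 for motors and cytokinesis and 0, 1 and 0 for condensin and cohesin. Without iMLL-ENL total replicate 3, G2 and mitotic entry and condensin and cohesin had 2 each. Anln (anillin, of the cytokinetic ring) had a log2 fold change of 1.19 (adjusted p = 0.00174), Cdca8 (borealin, of the passenger complex with Aurkb and Birc5) of 1.13 (adjusted p = 0.00349) and Ska1 (of the outer kinetochore) of 1.62 (adjusted p = 0.00601). Among 11 tested genes of CDK inhibitors, D cyclins and Cdk4/6, 3 were higher (1, 2 and 2 without wt LSK replicate 1, 2 and 3) and 1 lower, the latter being Ccnd2 (cyclin D2), at 267 to 359 CPM in wt LSK and 11.2 to 14.0 CPM in iMLL-ENL total (-4.58, adjusted p = 1.43e-05).

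The second comparison was between leukemic cells with high and low B220. No gene of the tables passed edgeR's test (0 of 12564 called, 0%), and so 0 of the 38 genes did. At an unadjusted p under 0.05, 4 of 17 replication genes and 1 of 21 mitosis genes were lower in B220 HIGH and 0 were higher. Of all 12564 genes, 234 (1.86%) were lower and 646 higher at that threshold. limma-voom called 0 of the 38 genes. DESeq2 called 2 lower, E2f1 and Cdc45, against 0.191% of the 14145 genes it gave an adjusted p. In a fit that blocked on replicate number, 0 of the 38 were called while 0.581% of all genes were called higher and 0.0478% lower. In that fit 11 of 17 replication genes and 2 of 21 mitosis genes had an unadjusted p under 0.05 and were lower, against 4.85% of all genes. The edgeR values of single genes below are from the fit without the block, unless the block is named. With the block the SE was smaller for some genes (Mcm4, 0.159 against 0.383) and larger for others (Plk1, 0.385 against 0.372). The edgeR adjusted p of Cdc45 was 0.103 with the block and 0.358 without it.

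All 17 replication genes had a fold change below 0, with a median log2 fold change of -0.59, against -0.12 for the mitosis genes, of which 6 of 21 were above 0, and -0.03 for all genes. The median of the replication genes moved between -0.75, without B220 LOW replicate 1, and -0.44, without B220 HIGH replicate 1. In 11 of the 17 replication genes the 3 B220 HIGH libraries all lay below the 3 B220 LOW libraries in CPM, against 7.22% of all tested genes. The same held for 4 of 21 mitosis genes (Ccnb2, Bub1, Cdc20 and Kif20a), and 1 mitosis gene, Plk1, was higher without overlap, against 6.2% of all genes. Comparing libraries with the same number, 16 of 17 replication genes were lower in B220 HIGH in all 3 pairs, against 8 of 21 mitosis genes and 20.9% of all genes. The genes of a pathway share their libraries, so these counts describe 6 libraries and are not independent observations.

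**Figure D5:**
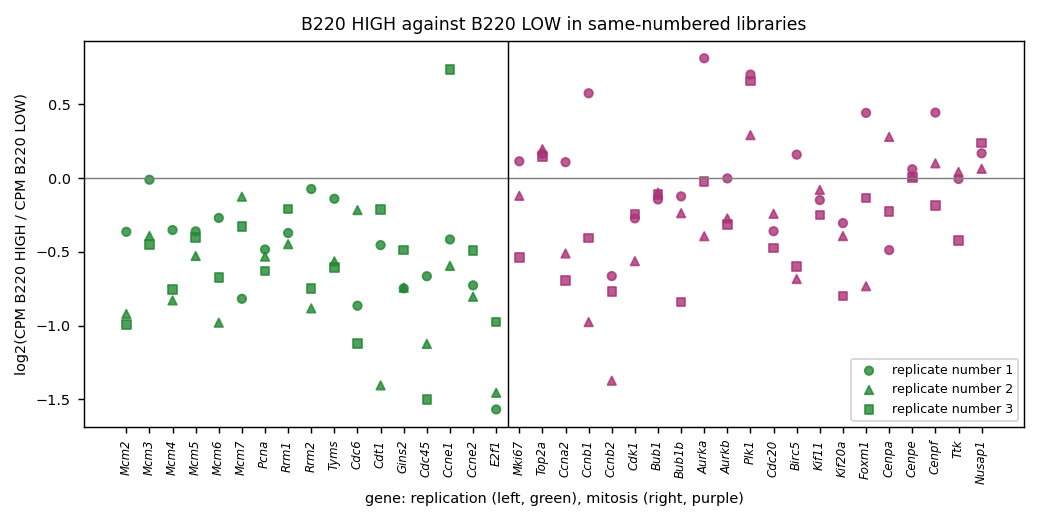
Log2 ratio of CPM in B220 HIGH to CPM in B220 LOW for each of the 38 genes, with a symbol for each replicate number; green is replication and purple is mitosis. In the replication genes 50 of 51 points lie below 0, the exception being Ccne1 in replicate number 3 (0.74). The mitosis genes lie on both sides, and their points for replicate number 1 have a median of 0.06.

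E2f1 was at 52.1, 40.0 and 29.5 CPM in B220 LOW and at 17.6, 14.6 and 15.0 CPM in B220 HIGH. The B220 HIGH libraries were close together and the B220 LOW libraries spread over a wide range above them. The log2 fold change was -1.31 (SE 0.36, adjusted p = 0.406 by edgeR and 0.0127 by DESeq2), the largest in size of the 38 genes in this comparison. Cdc45 was at 149, 143 and 153 CPM in B220 LOW and at 93.9, 65.6 and 54.1 CPM in B220 HIGH. Here it was the B220 LOW libraries that were close together, and the groups were far apart (edgeR adjusted p = 0.358, DESeq2 adjusted p = 0.0211).

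The licensing genes had a median log2 fold change of -0.62 over 8 genes. Mcm2 was at 216, 183 and 198 CPM in B220 LOW and at 168, 96.8 and 99.6 CPM in B220 HIGH (-0.69, SE 0.25, adjusted p = 0.607). Mcm5 was at 178, 161 and 156 CPM and at 139, 112 and 118 CPM (-0.38, SE 0.21, adjusted p = 0.804). Both genes were separate between the groups, as were Mcm6 (371 to 466 against 225 to 308 CPM), Cdc6 (61.0 to 103 against 33.5 to 56.2 CPM) and Cdt1 (114 to 172 against 65.1 to 98.2 CPM). Mcm3, Mcm4 and Mcm7 overlapped, though each was lower in B220 HIGH in all 3 same-numbered pairs. Gins2 was separate as well, at 98.6 to 124 CPM in B220 LOW and 58.9 to 88.3 CPM in B220 HIGH. Pcna overlapped, at 96.1, 154 and 182 against 68.7, 107 and 118 CPM (-0.51, SE 0.37, adjusted p = 0.869 without the replicate block). Its log2 ratios in same-numbered pairs were close together, at -0.48, -0.53 and -0.63. With the replicate block in edgeR its SE was 0.19 (adjusted p = 0.328).

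In nucleotide supply, Rrm2 was at 313, 560 and 421 CPM in B220 LOW and at 297, 304 and 251 CPM in B220 HIGH. The groups were separate by a narrow margin, because the lowest B220 LOW library stood close to the B220 HIGH range (-0.58, SE 0.28, adjusted p = 0.76). Rrm1 was separate (316 to 336 against 237 to 290 CPM) and Tyms overlapped. Of the 2 cyclin E genes, Ccne2 was separate (136 to 170 against 82.3 to 117 CPM) and Ccne1 was not. Ccne1 was at 50.9, 39.4 and 27.6 CPM in B220 LOW and at 38.2, 26.1 and 45.9 CPM in B220 HIGH, a difference well inside the spread of the libraries (-0.03, SE 0.37, adjusted p = 0.994), whose sign changed with the setting.

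No mitosis gene passed the test between the B220 groups, and 15 of 21 had a fold change below 0. Ccnb2 was at 215, 205 and 196 CPM in B220 LOW and at 136, 79.0 and 115 CPM in B220 HIGH, fully separate, with a log2 fold change of -0.86 and the lowest unadjusted p of the mitosis genes, 0.00755 by edgeR (adjusted p = 0.433). It was named after its values were seen. Plk1 went the other way, at 20.9, 20.2 and 15.5 CPM in B220 LOW and 34.0, 24.8 and 24.5 CPM in B220 HIGH (0.59, SE 0.37, adjusted p = 0.832). Ccnb1 overlapped, at 31.9, 51.0 and 42.0 against 47.6, 25.9 and 31.7 CPM (-0.24, SE 0.36, adjusted p = 0.951), as did Cdk1, at 163, 210 and 253 against 135, 142 and 214 CPM (-0.30, SE 0.32, adjusted p = 0.926). Among the marks of dividing cells, Mki67 was at 2514, 2100 and 2459 CPM in B220 LOW and at 2721, 1932 and 1695 CPM in B220 HIGH, so that the B220 HIGH libraries lay on both sides (-0.13, SE 0.22, adjusted p = 0.959).

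Top2a was at 1158, 776 and 786 CPM in B220 LOW and at 1299, 888 and 869 CPM in B220 HIGH, higher in B220 HIGH in each same-numbered pair by 0.17, 0.20 and 0.15 on the log2 scale (0.21 in the fit, SE 0.23, adjusted p = 0.926). Aurkb was at 163, 128 and 90.8 against 163, 106 and 73.0 CPM (-0.13, SE 0.30, adjusted p = 0.972), where libraries of the same number were closer to each other than libraries of the same group. Foxm1, at 77.7, 93.8 and 70.2 against 106, 56.5 and 64.0 CPM (-0.08, SE 0.29, adjusted p = 0.982), and Cenpa, at 190, 128 and 170 against 135, 155 and 145 CPM (-0.10, SE 0.24, adjusted p = 0.972), overlapped too. The other mitosis genes had log2 fold changes between -0.48 (Kif20a) and 0.21 (Nusap1).

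In the pathway lists, edgeR, DESeq2 and limma-voom called 0 of the 90 replication side genes and 0 of the 88 mitosis side genes. At an unadjusted p under 0.05, edgeR had 18 replication side genes (20.0%) and 1 mitosis side gene (1.14%), all lower in B220 HIGH. Of all 12564 genes, 1.86% were lower and 646 genes were higher, so the mitosis side lay at or under the background of lower genes. Fold changes were below 0 for 77 of 90 (85.6%) and 71 of 88 genes (80.7%), against 51.9% of all genes, with medians of -0.41 and -0.19. The difference between the sides was not tested. The list of CDK inhibitors, D cyclins and Cdk4/6, which is on neither side, went the other way. Its median log2 fold change was 0.72 over 11 tested genes, with 0 called. Promyelocyte genes also separated the groups, at 1599 to 7087 CPM in B220 LOW and 455 to 1351 CPM in B220 HIGH, as did the 7 genes of the LSK gate and stem cells, at 93.6 to 104 and 199 to 365 CPM. The 6 megakaryocyte genes summed to 2.29 to 5.96 and 23.7 to 66.7 CPM, with up to 4 at 0 in B220 LOW. The 7 monocyte and macrophage genes were separate too, at 293 to 478 and 543 to 1063 CPM. The mature neutrophil sums given above overlapped, as did 5 genes of plasmacytoid dendritic cells, which carry B220 (181 to 327 and 213 to 477 CPM). The 8 B lineage genes overlapped between 7.20 to 12.6 and 8.79 to 80.3 CPM, with up to 6 at 0 in a B220 LOW library and up to 5 in a B220 HIGH library. The part of these cell types in the lower replication values was not tested.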

How the data were processed

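RNA of 12 libraries, 3 per group, was analysed from raw counts per NCBI gene ID, which the authors deposited in one table for wt LSK and iMLL-ENL total and one for the B220 groups. Within each library, the normalized signal deposited beside them is a constant multiple of these counts, by a check against the counts. It was not used further. The deposited gene width in bases (another unit) served for levels per length. The submitters' processing notes list edgeR, GRCm38 and mm10, and the software for alignment and counting is not given in the sources used here. RefSeq gave symbols for 23968 of 24028 IDs and none for 60.

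Each comparison was fitted within its table with edgeR 4.0.16 in R 4.3.3 (quasi-likelihood F test, robust, TMM, filterByExpr with a minimum count of 10, two-sided, Benjamini-Hochberg over all genes tested, calls at an adjusted p under 0.05). Alternatives used DESeq2 1.42.0, limma 3.58.1 (voom), other scalings, no filter, a replicate block, all 12 libraries in one fit, and each library left out. The code was tested on simulated data. Same-numbered B220 LOW and B220 HIGH libraries deviated together (correlations 0.382, 0.193 and 0.298 across genes), which was taken as pairing, though the labels leave the meaning of the numbers unsaid. The block changed no call of the 38 genes there.

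The genes, lists and the rule for named genes were chosen with earlier results of these data known. Full statistics are given for called genes, for 14 genes chosen by function whichever way they went, and for up to 2 called genes per pathway list by smallest p. Printed sequences are RefSeq promoters of GRCm38.p6.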

Additional observations from a re-analysis of the deposited data

How the results depend on the processing

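Across the alternatives, 1935 values of single genes and pathway lists kept their direction and side of the threshold (for lists, their size), 86 genes' values lost a call, 10 gained one, 30 changed sign, and 136 counts or medians of lists moved beyond that. Limits are 3 libraries per group, unknown animals behind them, an unstranded kit and groups of different cell types.

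All genes called between iMLL-ENL total and wt LSK numbered 2411 with all 12 libraries in one fit and 2636 to 4528 with a library left out. Replication genes called higher were 3 with DESeq2 size factors, with library totals, with no filter and with all 12 libraries, and 3 to 5 with a library left out, with a median log2 fold change of 0.14 with library totals and 0.22 to 0.39 without a library. Mitosis genes called higher were 5 with all 12 libraries and 3 to 10 without a library. For all 38 genes the count was 9 with library totals, 8 with all 12 libraries and 6 to 13 without a library, and the median 0.42 with library totals and 0.42 to 0.62 without a library. With library totals, Mcm7, Rrm1, Cenpf and Nusap1 were at -0.02, -0.01, -0.01 and -0.03. Leaving out a library turned the sign of 8 genes that were not called: Mcm2 (-0.37 to 0.03), Pcna (-0.37 to 0.04), Rrm1 (-0.01 to 0.20), Gins2 (-0.09 to 0.43), E2f1 (-0.34 to 0.07), Top2a (-0.06 to 0.21), Cenpf (-0.14 to 0.27) and Nusap1 (-0.11 to 0.23).

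Between B220 HIGH and B220 LOW, all genes called numbered 302 with DESeq2, 22 with no filter, 31 with all 12 libraries and 0 to 96 without a library (3 without B220 LOW replicate 1, 96 without B220 HIGH replicate 1, 0 otherwise). DESeq2 called 2 of the replication genes lower, also 2 of all 38 genes, where leaving out a library gave 0 to 0. The replication median ran from -0.75 to -0.44 and that of all 38 genes from -0.38 to -0.18 without a library. Ccne1 was at 0.01 with all 12 libraries. Without a library the sign turned for Ccne1 (-0.27 to 0.18), Bub1b (-0.80 to 0.01), Aurka (-0.03 to 0.32), Aurkb (-0.38 to 0.10), Foxm1 (-0.30 to 0.09), Cenpa (-0.23 to 0.01) and Ttk (-0.20 to 0.07), none of them called. The cause of these changes was not tested.

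With a replicate block in the fit, 79 of all genes were called between the B220 groups, and 0 of the 38. Between iMLL-ENL total and wt LSK, same-numbered libraries did not deviate together (correlations 0.012, 0.143 and -0.033), so the samples share only a number. The block there called 12 of the 38 genes, with Mcm5, Ccna2 and Ttk at adjusted p of 0.0551, 0.053 and 0.0563 and Bub1b at 0.0151 by edgeR.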
